A study of Mus musculus with 4 samples.

Results

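Interferon regulatory factors (Irf proteins) are transcription factors that share a DNA-binding domain and control interferon genes and the genes that interferons induce. The set described here is Irf1, Irf2, Irf3, Irf4, Irf5, Irf7, Irf8 and Irf9, found through the accessions of the array's probes: 8 genes with 11 probes, of 33269 features and 41174 probes in all. Irf1, Irf8 and Irf9 have 2 probes each, and the brighter probe stands for the gene. The brains were those of 9-week-old male mice of strain C57BL/6J with permanent middle cerebral artery occlusion (PMCAO) by an intraluminal filament, a model of stroke. Saline was injected into the cerebral ventricle right after the occlusion, and tissue was taken at 6 h. In this model the core loses most of its blood supply, and the surrounding penumbra keeps part of it. Total RNA of ischemic and of matching healthy tissue was hybridised together, in different dyes, on each of 4 two-colour arrays. Ischemic RNA was in Cy5 on core array 1 and penumbra array 3, and in Cy3 on core array 2 and penumbra array 4. The labels name saline for all 4 tissues; surgery was under sevoflurane, and mice were selected by their neurological grade. The labels do not say whether the RNA of several mice was pooled, whether the arrays of a pair held different extracts, or from which hemisphere or animals the healthy pieces were cut.

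As background, Irf3 and Irf7 carry the signal of nucleic acid and Toll-like receptors to the type I interferon genes, and Irf5 acts in the same receptors' induction of inflammatory cytokines. Secreted interferons act through Jak kinases and Stat proteins, and Irf9 with Stat proteins forms the complex that binds the interferon-stimulated response element. Irf1 is itself induced by interferon gamma and by NF-kappaB, and Irf2 competes with it for the same sites. Irf8 and Irf4 work with partners such as PU.1 in blood-derived and lymphoid cells, and Irf8 is needed for microglia, the resident macrophages of the brain. Irf5 and Irf8 have been studied in microglial activation after nerve and brain injury.

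To show the sequence from which the factors themselves are transcribed, the 250 bases before the start were read for the members whose ratio lay above the spread between arrays in the same direction in both regions, Irf1 and Irf8. With median centring in place of loess, neither gene's penumbra ratio lay above that spread. Both sequences are those of RefSeq on GRCm38.p6, plus strand, 5′ to 3′, and capitals mark matched motifs. The Irf1 sequence is chr11:53769764-53770013 and the Irf8 sequence is chr8:120736108-120736357.
Irf1: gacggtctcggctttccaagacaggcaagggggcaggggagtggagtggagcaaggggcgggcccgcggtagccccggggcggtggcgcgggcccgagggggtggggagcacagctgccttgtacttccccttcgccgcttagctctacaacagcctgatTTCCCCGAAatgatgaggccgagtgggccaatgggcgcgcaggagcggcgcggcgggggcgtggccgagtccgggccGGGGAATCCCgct
Irf8: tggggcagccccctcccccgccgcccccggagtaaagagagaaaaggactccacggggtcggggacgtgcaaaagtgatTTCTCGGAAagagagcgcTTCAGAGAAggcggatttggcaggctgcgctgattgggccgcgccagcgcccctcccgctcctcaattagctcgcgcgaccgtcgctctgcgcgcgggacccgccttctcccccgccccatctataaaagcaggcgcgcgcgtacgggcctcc
Searches on both strands used the core of the interferon-stimulated response element (GAAANNGAA), the interferon gamma activated site or GAS (TTCNNNGAA), which Stat proteins bind, and the NF-kappaB site. In Irf1 the capitals are a GAS match at -90 to -82 (TTCCCCGAA) and an NF-kappaB match at -13 to -4 (GGGGAATCCC), counted from the start. In Irf8 they are a pair of GAS matches at -171 to -163 (TTCTCGGAA) and -153 to -145 (TTCAGAGAA), which do not overlap. Of 32851 mouse promoters of the same length, 7.02% held a GAS match, 7.13% the response element core and 3.9% an NF-kappaB match. Irf2 held all 3 motifs (GAAAATGAA at -241 to -233, TTCCGAGAA at -224 to -216 and GGGGATTTCC at -17 to -8), and Irf3, Irf4, Irf5, Irf7 and Irf9 held none of these letters in this window. A second listed start of Irf1 and of Irf8 held none. These are matches of letters and not shown sites.

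All ratios below are log2 ratios of ischemic over healthy tissue, relative to the median of all features. Each swapped pair of arrays was counted as 1 replicate, so no p-value rests on animals, and errors are the SD between the 2 arrays. That SD holds dye bias, which cancels in the mean of the pair. A feature was called by size where its mean was at least 2-fold and each array at least 1.5-fold in the same direction. A second, descriptive rule asked that the mean exceed the SD. Scaling to spike-in control transcripts would lower every ratio by 0.48 in the core and 0.46 in the penumbra. At that scaling Irf8 lay at 0.00 in the core and the other 7 members below 0, from -0.51 to -0.01, and in the penumbra all 7 measured members lay below 0, so every direction given here is relative to the median feature. The same scaling turned the split of features called in the core from 76 higher and 0 lower to 31 higher and 30 lower, and in the penumbra from 60 and 1 to 29 and 41. The median spot signal of an array ranged from 182.5 to 213 in the Cy3 channel and from 268 to 290.5 in Cy5, over local backgrounds of 64 to 71. The share of spots well above background was 76.1% to 79.4%, and 0 spots were saturated. In such bulk tissue, fewer cells of a type and less RNA per cell cannot be told apart.

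The first comparison asked how Irf transcripts differ between ischemic and healthy core. Irf8 and Irf5, the members best known from microglia and other myeloid cells, had ratios of 1.39-fold and 1.38-fold, above those of the other members at the background offset used here. With an offset of 10 the dim Irf4 lay above them, at 0.55 against 0.50 for each. At the offset used, Irf4, Irf9 and Irf1 followed at 1.21-fold to 1.22-fold, and Irf2 lay at -0.03. None of the 8 was called by size, against 0.31% of all 24533 features in the core. Irf4 passed the filter on dim probes, which asks for signal well above background on both arrays of at least 1 tissue, only through ischemic core, where it was the higher, and is left out of the counts of members that follow. Of the other 7, the mean exceeded the SD in 5, all higher, against 22.6% of features higher and 22.5% lower. Among features well above background on both arrays of both tissues, a limit added after the data were seen, the shares were 22.3% and 22.7%. The median ratio of these 7 was 0.27, and that of all features was -0.01. With median centring the rule held in 4 members, Irf1, Irf3, Irf5 and Irf8, all higher.

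Irf8 had log2 ratios of 0.65 and 0.31 on core arrays 1 and 2, with a mean of 0.48 ± 0.24 (SD, 2 arrays). In the penumbra it had 0.43 and 0.13, with a mean of 0.28 ± 0.21 (1.22-fold). All 4 arrays lay above 0, and in each region the array with ischemic RNA in Cy5 was the higher one. The dimmer Irf8 probe had 0.21 and 0.26 in the core and 0.25 and 0.25 in the penumbra, so it was above 0 on all 4 arrays. Its means of 0.23 in the core and 0.25 in the penumbra did not place the core higher.

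Irf5 had 0.36 and 0.57 on the core arrays, with a mean of 0.46 ± 0.15. On the penumbra arrays it had 0.04 and 0.36, a mean of 0.20 ± 0.22 (1.15-fold), which did not exceed its SD. Here the arrays with ischemic RNA in Cy3 were the higher ones. Of all features, 2.01% in the core had a ratio at least as high as that of Irf5, and 1.87% one at least as high as that of Irf8.

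Irf1, a factor induced by interferon gamma and NF-kappaB, had the smallest spread between arrays among the members with a ratio above 0.1. Its arrays read 0.29 and 0.26 in the core, a mean of 0.27 ± 0.02 (1.21-fold), and 0.23 and 0.22 in the penumbra, a mean of 0.22 ± 0.01 (1.17-fold). All 4 arrays agreed in direction, and the 2 core values lay above the 2 penumbra values by less than 0.1. Its second, dimmer probe had -0.02 and 0.23 in the core and -0.19 and 0.18 in the penumbra, and so gave no direction. Irf2, which competes with Irf1, had 0.01 and -0.07 in the core and -0.09 and -0.06 in the penumbra. Its penumbra mean of -0.08 ± 0.02 was the only one of a member to exceed its SD on the lower side.

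Irf3, Irf7 and Irf9 are the factors of the type I interferon loop, and none of them was called by size. Irf3, which is present before infection and activated by phosphorylation, had 0.06 and 0.40 in the core and -0.05 and 0.37 in the penumbra. Its means of 0.23 ± 0.24 and 0.16 ± 0.30 did not exceed the spread between arrays, and in both regions the Cy3 array was the high one. Irf7, a member that interferon itself induces, had 0.05 and 0.23 in the core (mean 0.14 ± 0.13) and -0.10 and 0.05 in the penumbra (mean -0.03 ± 0.10). Irf9, the DNA-binding subunit of its complex with Stat proteins, had 0.41 and 0.15 in the core (mean 0.28 ± 0.19) and 0.19 and 0.02 in the penumbra (mean 0.10 ± 0.12). The penumbra means of Irf7 and Irf9 did not exceed their SD. The second Irf9 probe was well above background on only 1 channel of the 8 and had ratios between -0.07 and 0.07.

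Irf4, a factor of lymphoid and dendritic cells, was well above background on both arrays of ischemic core, on 1 of 2 of healthy core, on 1 of 2 of healthy penumbra and on 0 of 2 of ischemic penumbra. It had 0.23 and 0.35 in the core, a mean of 0.29 ± 0.08 (1.22-fold). It did not pass the filter in the penumbra, where its arrays read 0.03 and -0.02. Without an added offset, in the scanner software's processed signals, the core ratio was 1.16 ± 0.41 and passed the size rule, so the size of this difference depends on how background is handled.

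**Figure D1:**
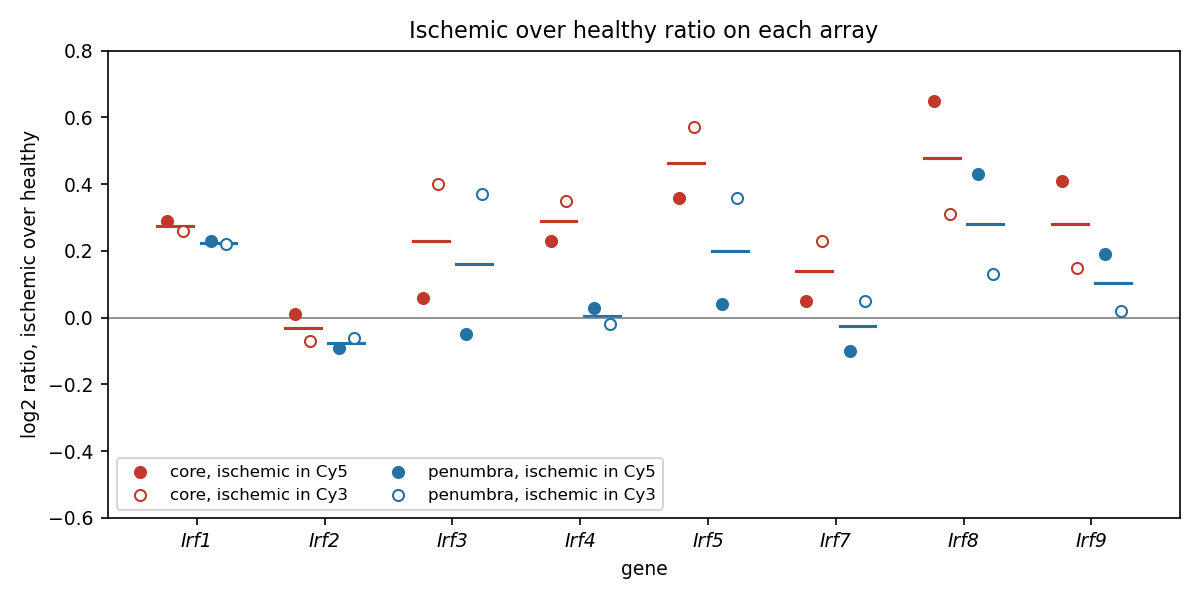
Log2 ratio of ischemic over healthy tissue for each Irf gene on each array, relative to the median feature (core in red, penumbra in blue; filled points have ischemic RNA in Cy5, open points in Cy3, bars are the mean of the 2 arrays; Irf4 did not pass the filter in the penumbra). Irf1, Irf4, Irf5, Irf7, Irf8 and Irf9, together with Irf3, lay above 0 on both core arrays; with spike-in scaling, points would sit 0.48 lower in the core and 0.46 lower in the penumbra.

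In the penumbra 0 of 7 measured members were called by size, against 0.245% of 24925 features. The mean exceeded the SD upward in Irf1 and Irf8 and downward in Irf2, that is in 2 and 1 of 7, against 25.9% and 26.7% of features. With median centring these 3 no longer exceeded their SD, at 0.12 ± 0.26 for Irf1, 0.20 ± 0.44 for Irf8 and -0.16 ± 0.20 for Irf2, while Irf3 (0.05 ± 0.00) and Irf5 (0.15 ± 0.05) did. With the mean over a gene's probes, Irf1 was at 0.11 ± 0.13. Which members exceed the spread in the penumbra thus depended on the processing. The members' median was 0.16 and that of all features was -0.01. Against the shares of all features, the count of 5 of 7 in the core was above and the count of 2 of 7 in the penumbra was near.

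A model over all features with a coefficient for dye removes the dye bias from the error. It has a coefficient for each region and one for dye over only 4 arrays. Its error is thus how far the dye effect differs between the core pair and the penumbra pair, moderated over all features. The p-values measure neither the spread between mice nor the SD between arrays given above, which holds dye bias. In either direction, 29% of features passed in the core and 42.7% in the penumbra. With limma and Benjamini-Hochberg adjustment, 6 of the 7 members passed an adjusted p of 0.05 in the core, all higher, against 15.8% of features higher. Adjusted p-values were 1.43e-05 for Irf8, 2.29e-05 for Irf5, 0.00102 for Irf1, 0.00104 for Irf9, 0.00341 for Irf3 and 0.0384 for Irf7. Irf4, left out of the count, had 0.00106. In the penumbra 4 of 7 passed, all higher, against 21.6% of features higher: Irf8 at 0.000528, Irf1 at 0.00242, Irf5 at 0.00502 and Irf3 at 0.0165. The limma fit without the dye coefficient called 0 members in either region. Its adjusted p-values in the core ran from 0.125 for Irf5 to 0.913 for Irf2, and 4 of the 7 members had an unadjusted p under 0.05 there, against 1 of 7 in the penumbra. Every one of these calls therefore rests on removing the dye effect.

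**Figure D2:**
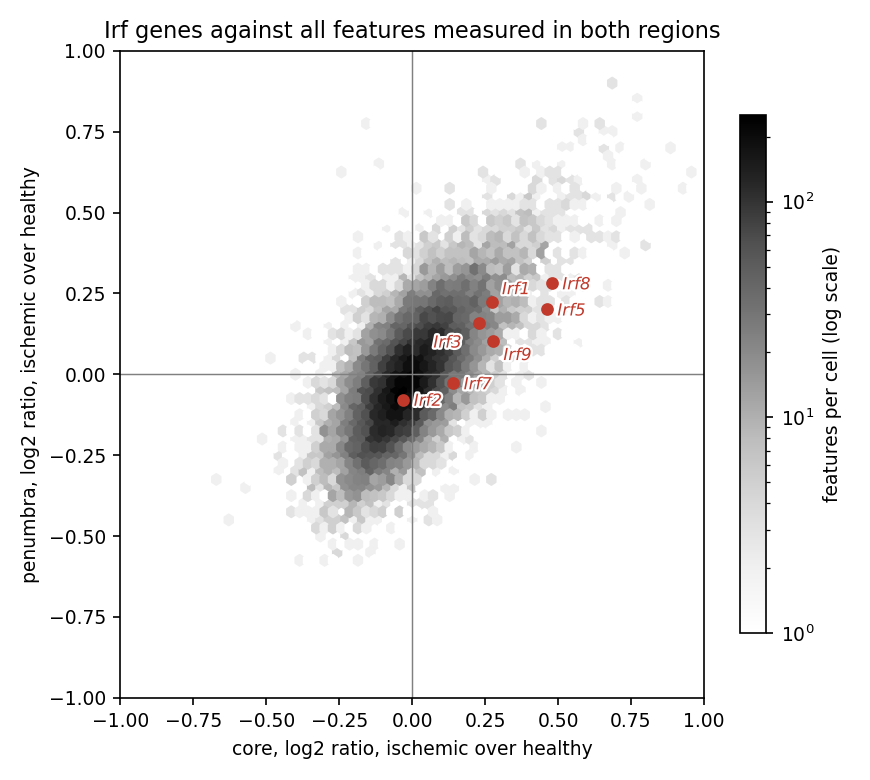
Log2 ratio of ischemic over healthy tissue in the core (x) and the penumbra (y), each the mean of 2 arrays and relative to the median feature, for the 24199 features measured in both regions (grey, features per cell on a log scale; 92 lie outside the axes) and the 7 Irf genes measured in both (red). Irf5 and Irf8 sit at 0.46 and 0.48 in the core, at the right edge of the dense cloud, and Irf2 sits within the bulk; with spike-in scaling the zero lines would move to 0.48 and 0.46.

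Whether the core differs from the penumbra was asked next. The 2 regions share no array, but for each dye orientation there is 1 array of either region. No member reached the difference of 1 log2 unit, against 0.062% of the 24199 features measured in both regions. Over all 4 arrays, 2 of 7 members (Irf1 and Irf7) had both core arrays above both penumbra arrays, Irf7 by less than 0.01, and 0 had both below, against 15.7% and 14.6% of features. A comparison within each dye orientation, chosen after the data were seen, cancels the dye bias. There Irf5 was higher in the core by 0.31 and 0.21, Irf8 by 0.21 and 0.18, Irf9 by 0.22 and 0.13, and Irf7 by 0.15 and 0.19. Irf1 was higher by 0.06 and 0.04 and Irf3 by 0.12 and 0.02. In these 6 of 7 members both orientations lay above 0 and the mean exceeded the SD, and in 0 members it did so on the lower side, against 30.9% and 26% of features. Irf2 had 0.10 and -0.01, so it had no one direction.

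The mean difference was 0.26 for Irf5 and 0.20 for Irf8, and the members' median was 0.17 against 0.01 for all features. The Irf8 value is that of its brighter probe. With the mean over the probes of the gene it was 0.09, since the dimmer probe did not read higher in the core. Of the 7 members, only Irf5 passed in limma with a dye coefficient, with an adjusted p of 0.0353, against 3.54% of features higher in the core. Irf8 had an adjusted p of 0.0938, Irf9 of 0.139 and Irf7 of 0.147, all with the same direction in both orientations. Without the dye coefficient, limma gave all 7 members an adjusted p of 1, and 0 of 7 had an unadjusted p under 0.05. Irf4 is left out of this count, since it was not measured in the penumbra.

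**Figure D3:**
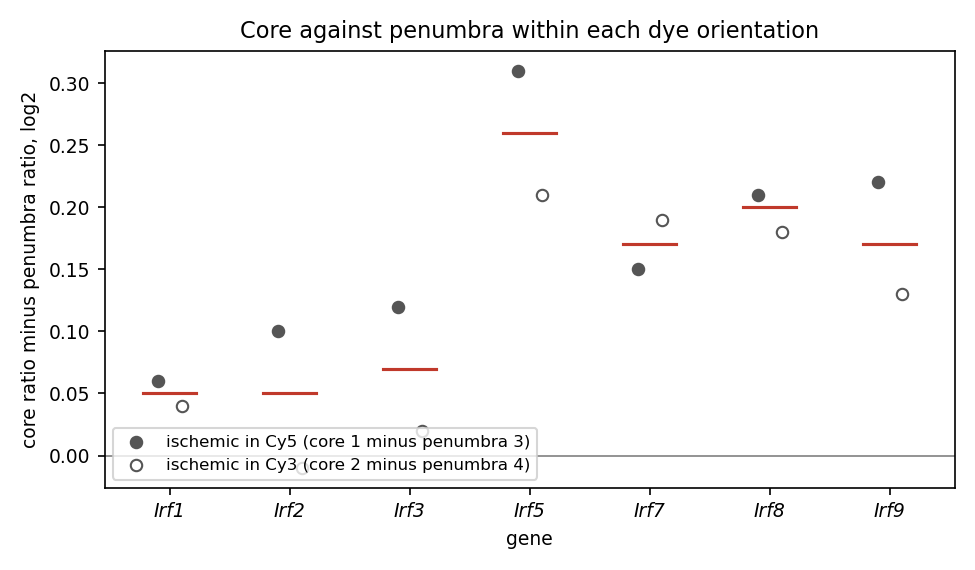
Core ratio minus penumbra ratio (log2) within each dye orientation for the 7 Irf genes measured in both regions (filled, ischemic RNA in Cy5; open, in Cy3; red bars, mean). Both points lie above 0 for Irf1, Irf3, Irf5, Irf7, Irf8 and Irf9, with Irf5 at 0.31 and 0.21, while those of Irf2 lie at 0.10 and -0.01.

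Levels of each probe in the 4 tissues were read as normalized single-channel log2 intensity, first in Cy3 and then in Cy5. Levels are compared between tissues for 1 probe and never between genes. The SD of a step between tissues is over the 2 dyes, with the tissues of a dye read on different arrays. It is not the SD of the ratios, which is between the swapped arrays and holds dye bias, so the same contrast can exceed one and not the other. Irf8 read 9.49 and 9.65 in healthy core, 9.96 and 10.13 in ischemic core, 9.59 and 9.78 in healthy penumbra and 9.91 and 10.02 in ischemic penumbra. Its order was ischemic core, ischemic penumbra, healthy penumbra and healthy core, with each step larger than its SD over the 2 dyes. The top step was small, 0.08 ± 0.04, next to the step of 0.28 ± 0.06 from healthy to ischemic penumbra. Irf5 had the same order, with 8.59 and 8.60 in healthy core, 9.17 and 8.94 in ischemic core, 8.79 and 8.67 in healthy penumbra and 9.03 and 8.84 in ischemic penumbra. Its steps of 0.12 ± 0.02, 0.20 ± 0.05 and 0.14 ± 0.10 also exceeded their SD over dyes, while its penumbra ratio of 0.20 ± 0.22 did not exceed the SD between arrays. For both genes the healthy pieces and the ischemic pieces were ordered oppositely at this processing.

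Irf1 read 10.43 and 10.51 in healthy core, 10.77 and 10.72 in ischemic core, 10.37 and 10.39 in healthy penumbra and 10.61 and 10.60 in ischemic penumbra. Both ischemic tissues lay above both healthy ones in each dye. Irf2 was ordered by region: it read 10.00 and 10.10 in healthy core and 10.03 and 10.01 in ischemic core, against 9.71 and 9.75 in healthy penumbra and 9.69 and 9.62 in ischemic penumbra. Within a region, its healthy and ischemic levels did not differ beyond the spread over dyes, with 0.08 ± 0.08 in the penumbra. The penumbra ratio of Irf2, -0.08 ± 0.02, did exceed its SD between arrays. Irf7 was at 7.27 and 7.28 in healthy core, 7.51 and 7.32 in ischemic core, 7.20 and 7.14 in healthy penumbra and 7.19 and 7.10 in ischemic penumbra, so its 2 core tissues lay above its 2 penumbra tissues. Irf9 read 8.94 and 9.06 in healthy core, the lowest of its 4 tissues, and 9.20 and 9.35 in ischemic core. In the penumbra it read 9.05 and 9.22 in healthy and 9.24 and 9.24 in ischemic tissue, and the steps among its upper 3 tissues did not exceed the spread.

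Irf3 read 11.64 and 11.34 in healthy core, 11.74 and 11.71 in ischemic core, 11.77 and 11.42 in healthy penumbra and 11.79 and 11.72 in ischemic penumbra. In Cy3 its 4 tissues lay within 0.15 of each other, and the gap between healthy and ischemic tissue appeared in Cy5. Irf4 read 6.29 and 6.29 in healthy core, 6.64 and 6.52 in ischemic core, 6.19 and 6.29 in healthy penumbra and 6.27 and 6.22 in ischemic penumbra. In ischemic tissue it read 1.26-fold higher in the core, a lower bound at the offset used, since no ischemic penumbra array was well above background. This is the bright group's mean of 6.58 against 6.25, the mean over the dim arrays of the higher of the probe's own signal and the lowest signal well above background. That floor equals the probe's own mean in ischemic penumbra. Because Irf4 passed the filter only through ischemic core, the higher tissue, this difference is a description and is not counted. With Agilent's processed signals the log2 difference was 1.30 in place of 0.33.

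**Figure D4:**
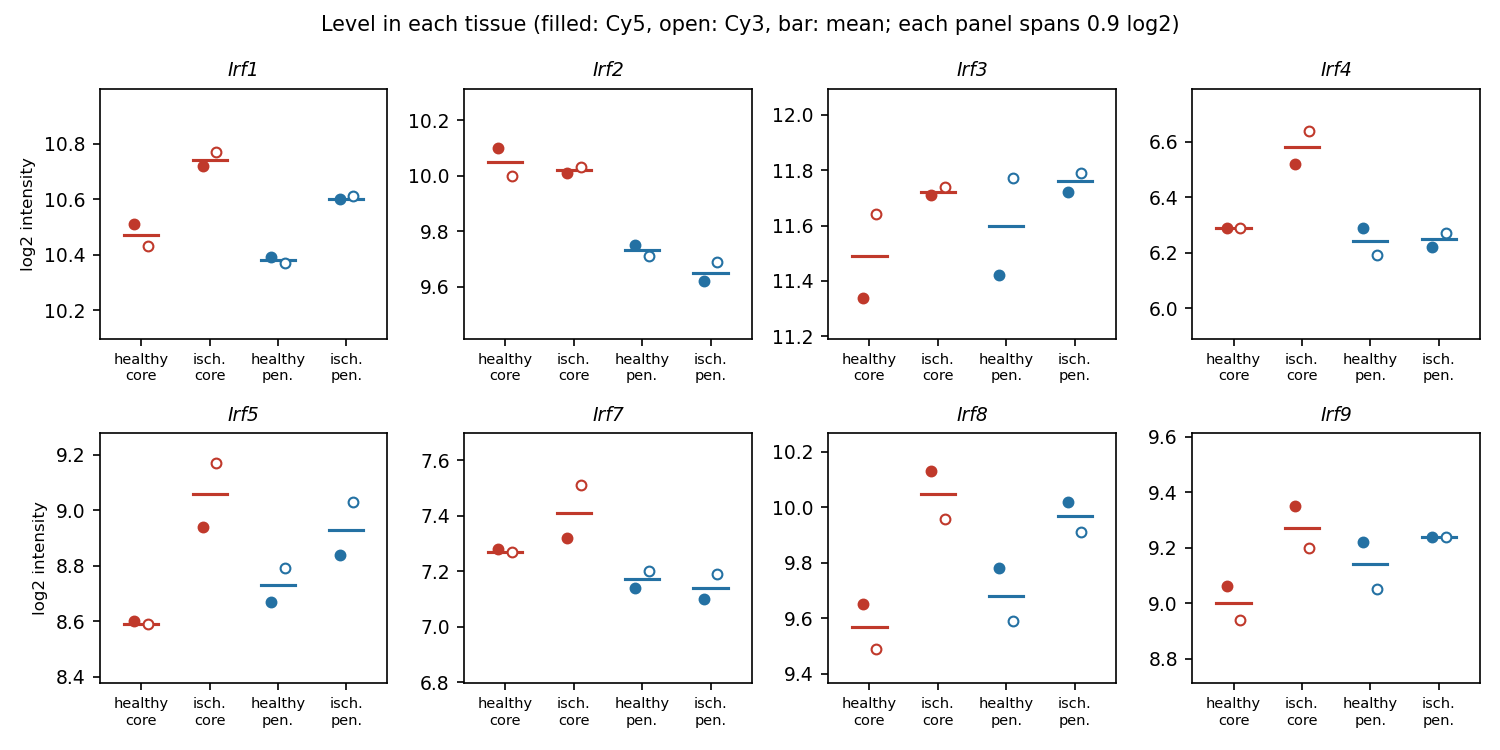
Normalized log2 intensity of each Irf gene's brightest probe in healthy and ischemic core (red) and penumbra (blue), with Cy5 as filled points, Cy3 as open points and bars as their mean; each panel covers the same range of 0.9 log2 around its own centre, and levels are not comparable between panels. Irf2 is set apart by region (10.05 and 10.02 against 9.73 and 9.65), Irf1, Irf5 and Irf8 are higher in both ischemic tissues, and with spike-in scaling the ischemic levels would sit 0.46 to 0.48 lower.

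The healthy pieces of the 2 regions were compared as well. Among them, 3 of 7 members were higher in the core beyond their SD (Irf2 by 0.32 ± 0.04, Irf7 by 0.10 ± 0.04 and Irf1 by 0.09 ± 0.04). The other 4 were lower, with Irf5 at -0.14 ± 0.10, Irf9 at -0.14 ± 0.03, Irf8 at -0.11 ± 0.02 and Irf3 at -0.10 ± 0.04. The same rule held in 36.6% of features on the higher side and 27.4% on the lower, and no member was called by size, against 1.13% of features. Among ischemic pieces, 5 of the 7 members other than Irf4 were higher in the core and 1 lower (Irf3, -0.03 ± 0.03), against 37.2% and 27.8% of features, and 0 were called by size against 1.35%. There Irf2 had 0.37 ± 0.04, Irf7 0.27 ± 0.07, Irf1 0.14 ± 0.03, Irf5 0.12 ± 0.02 and Irf8 0.08 ± 0.04. Irf4, which passed the filter only through ischemic core, had 0.33 ± 0.05. With Agilent's processed signals several directions turned. Between ischemic pieces Irf5 was then at -0.04, Irf8 at -0.03, Irf9 at -0.08 and Irf3 at 0.05, and between healthy pieces Irf7 was at -0.05 and Irf3 at 0.01. The directions of these members between pieces of a kind thus depend on the processing.

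Markers of brain regions moved with these comparisons of pieces. In healthy tissue all 7 measured choroid plexus markers were called lower in the core piece, with a median of -3.32, as were 7 of 8 striatal markers, with a median of -1.88, while 2 of 6 cortical markers were called higher. Of all features, 1.13% were called in this comparison in either direction. The summed intensity of the choroid plexus list was 1510 to 1590 in core tissue, 20100 to 21000 in healthy penumbra and 31100 to 33000 in ischemic penumbra, so these markers also differed between healthy and ischemic penumbra. Meningeal markers had a median ratio of 0.37 in the penumbra, with 8 of 8 above their SD against 25.9% of features, and of -0.10 in the core. The part of these differences in the values of the Irf genes was not tested.

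Markers of the cells that express Irf8 and Irf5 were read beside them. Of 12 microglial markers, 4 were higher and 2 lower beyond their SD in the core, against 22.6% and 22.5% of features, with a median of 0.01. In the penumbra 5 were higher and 2 lower, against 25.9% and 26.7% of features, with a median of 0.06. The bright microglial gene Csf1r, a growth factor receptor, had -0.16 ± 0.25 and -0.11 ± 0.30. Neither mean exceeded its SD, so Csf1r does not stand for the markers beyond their SD, most of which were higher. Summed microglial intensity was 36000 to 40100 in healthy core and 38700 to 39300 in ischemic core, and 37900 to 42100 and 42700 in healthy and ischemic penumbra. Neutrophil markers stood apart: 3 of 8 measured were called higher in the core, against 0.31% of features called, with a median of 0.76. In the penumbra 3 of 7 of them were called higher, against 0.245% of features, with a median of 0.57. Their summed intensity was 2960 to 3050 in healthy core and 13600 to 14900 in ischemic core, against 3640 to 3860 and 10700 to 13800 in the penumbra. S100a9, a calcium-binding protein of neutrophils, had 2.49 ± 0.06 and 1.88 ± 0.23, and S100a8 had 2.39 ± 0.00 and 1.82 ± 0.01. Camp, a neutrophil granule gene, was not well above background in any tissue.

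Of 9 monocyte and macrophage markers 1 was called higher in the core, against 0.31% of features called. This was Cd14, a co-receptor for lipopolysaccharide, at 1.53 ± 0.11, with 0.41 ± 0.10 in the penumbra. Lyz2, a lysozyme of myeloid cells, had 0.31 ± 0.08 and 0.49 ± 0.07. Beyond their SD, 4 of the 9 were higher and 2 lower in the core, against 22.6% and 22.5% of features. In the penumbra 6 of 8 measured were higher and 0 lower, against 25.9% and 26.7% of features. The list median was 0.10 in the core and 0.17 in the penumbra. A sum of intensity weighs bright genes such as Cd14 and Lyz2 most. The summed intensity of the list was 7960 to 8360 in healthy core, 12500 to 12600 in ischemic core, 8000 to 8080 in healthy penumbra and 10500 to 10900 in ischemic penumbra. Lymphocyte and dendritic cell markers, which bear on Irf4 and Irf8, had core medians of 0.04 each, with 0 called against 0.31% of features. Cd3g and Ncr1 were not well above background in any tissue, nor were Clec9a and Cd209a. Their summed intensity was 1260 to 1280 in healthy and 1310 to 1320 in ischemic core for lymphocytes, and 1040 to 1100 and 1010 to 1120 for dendritic cells. What part myeloid cells had in the Irf8 and Irf5 ratios was not tested.

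The rest of the pathway was read from 7 lists. No gene of these lists was called by size in either region, against 0.31% of features in the core and 0.245% in the penumbra. Counts of list genes beyond their SD stand beside 22.6% of all features higher and 22.5% lower in the core, and 25.9% and 26.7% in the penumbra. Of 13 interferon ligand genes on the array 7 were measured in the core and 6 in the penumbra, with medians of -0.03 and -0.04. The members with the brightest probes, Ifna9, Ifna13 and Ifnz, had core ratios of 0.01 ± 0.03, 0.03 ± 0.03 and -0.03 ± 0.06. Interferon alpha genes are near-identical in sequence, so their probes may not separate them. All 6 receptor genes were measured, with medians of -0.09 and -0.10. Ifngr2, the signalling chain of the interferon gamma receptor, had a core ratio of -0.19 ± 0.07 and a penumbra ratio of -0.39 ± 0.14, and Ifngr1, its ligand-binding chain, had -0.12 ± 0.03 and 0.06 ± 0.14. Ifnar2, a chain of the type I receptor, had -0.05 ± 0.31 and -0.01 ± 0.27.

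Of 19 measured sensors and adaptors upstream of Irf3, Irf5 and Irf7, the mean exceeded the SD upward in 5 and downward in 2 in the core, with a median of 0.00, and in 3 and 6 in the penumbra, with a median of -0.05. The bright members Tlr9, a receptor for DNA, Irak1, a kinase of the Toll-like receptor pathway, and Traf3, an adaptor to the kinases that activate Irf3, had core ratios of -0.10 ± 0.15, -0.04 ± 0.04 and 0.07 ± 0.22. Myd88, the adaptor through which Toll-like receptors reach Irf5, was singled out after its values were seen. It had 0.30 and 0.32 in the core, a mean of 0.31 ± 0.02, and 0.01 and 0.04 in the penumbra, a mean of 0.02 ± 0.02, so both core arrays lay above both penumbra arrays. Among the 5 signal transducers, Jak2, a kinase of the interferon gamma receptor, had 0.27 ± 0.05 and 0.22 ± 0.00. Jak1 had -0.05 ± 0.01 and -0.17 ± 0.03.

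Partners and inhibitors of Irf proteins had the highest list median in the core, 0.18, with 7 of 15 higher and 3 lower beyond their SD, and a median of 0.02 in the penumbra, with 4 and 2. Socs3, a feedback inhibitor of Jak kinases, had 0.92 and 0.90 in the core, a mean of 0.91 ± 0.01, and 0.48 and 0.62 in the penumbra, a mean of 0.55 ± 0.10. Irf2bpl, a protein related to the Irf2 corepressors, had 0.61 ± 0.03 and 0.41 ± 0.06. Singled out after their values were seen, Ptpn6, a phosphatase of blood cells, had 0.58 ± 0.10 and 0.36 ± 0.12, and Spi1, which encodes the Irf8 partner PU.1, had 0.18 ± 0.19 and -0.03 ± 0.11. Socs1, an inhibitor of interferon signalling also singled out after its values were seen, had 0.52 ± 0.05 and 0.21 ± 0.13.

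Targets of these factors were read as well. Of 21 measured type I interferon targets, 3 were higher and 2 lower beyond their SD in the core, with a median of 0.01, and 6 and 2 in the penumbra, with a median of 0.04. Ifi27, Adar, an RNA-editing enzyme, and Lgals3bp, the bright members, had core ratios of 0.01 ± 0.11, 0.18 ± 0.06 and -0.18 ± 0.23. Rsad2 (viperin), an antiviral enzyme singled out after its values were seen, had the highest core ratio of this list, 0.41 ± 0.11, and 0.29 ± 0.13 in the penumbra. Of 24 interferon gamma and Irf1 targets measured in the core 8 were higher and 4 lower beyond their SD, with a median of 0.08, and in the penumbra 12 and 1 of 23, with a median of 0.06, so that in the penumbra more of them were higher and fewer lower than the 25.9% and 26.7% of all features. The bright members Psmb10, an immunoproteasome subunit, Tapbp, a chaperone of antigen loading, and B2m, the light chain of class I molecules, had core ratios of 0.09 ± 0.10, -0.04 ± 0.04 and -0.04 ± 0.25. The highest core ratios of the list, singled out after they were seen, were those of Cxcl10, a chemokine, with 1.11 and 0.73 (mean 0.92 ± 0.27), and Iigp1, an interferon-induced GTPase, with 0.77 and 0.83 (mean 0.80 ± 0.04). In the penumbra they had 0.15 ± 0.16 and 0.53 ± 0.12. Core minus penumbra, Cxcl10 was at -0.96 ± 0.12 between healthy pieces and at -0.20 ± 0.23 between ischemic pieces. Its level was thus not higher in ischemic core than in ischemic penumbra.

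**Figure D5:**
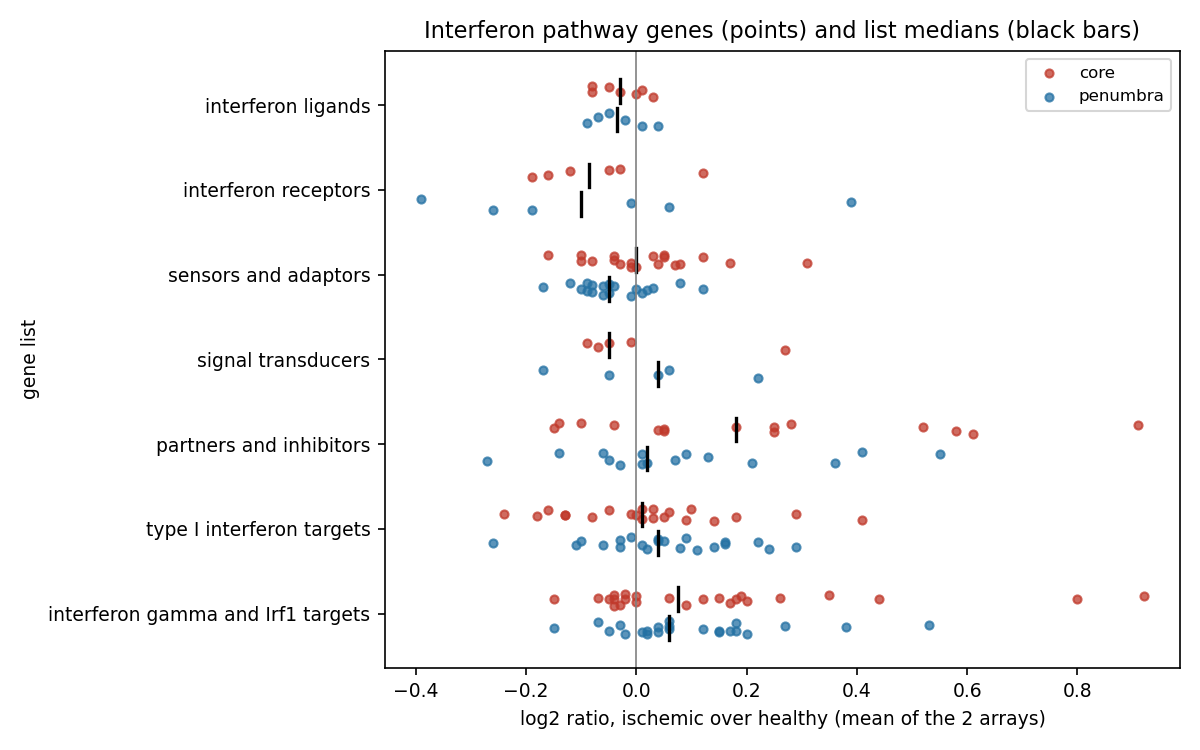
Log2 ratio of ischemic over healthy tissue, mean of 2 arrays and relative to the median feature, for the measured genes of 7 interferon pathway lists in the core (red) and the penumbra (blue); black bars are list medians. Most points lie within 0.3 of 0 and the medians run from -0.10 to 0.18, with Socs3 at 0.91 and Cxcl10 at 0.92 the points farthest to the right; spike-in scaling would shift core points by 0.48 and penumbra points by 0.46 to the left.

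Genes with levels most like those of a member over the 4 tissues were to be named where the member's levels spanned at least 0.5 log2. No member did, since the spans ran from 0.26 for Irf3 to 0.48 for Irf8. With the span lowered to 0.4 after this was seen, Irf5 and Irf8 qualified. Distances were taken between levels centred on their own mean over the 4 tissues, among 13632 genes. Bcl6b, Bend5 and Pxdc1 lay nearest to Irf5, at 0.03, 0.04 and 0.04 log2, where the median gene was at 0.42. D16Ertd472e and Rce1 were among the 3 nearest to Irf8, at 0.02 and 0.04, where the median gene was at 0.45.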

How the data were processed

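Per the file headers, the deposited files give spot intensity in Cy3 and Cy5 as written by Agilent Feature Extraction (version 11.0.1.1 in the submitters' processing notes). A deposited table of the whole series holds log10 ratios, equal within 5.0e-06 to the log10 of processed Cy5 over Cy3 signal; its column medians were -0.0215, 0.00516, -0.0199 and -0.0115, and it was not used for results. Here median signals were corrected with normexp (offset 50) and loess within arrays in limma 3.58.1 (R 4.3.3), with control and outlier spots at weight 0; single channels had Aquantile normalization. Spots of a probe were averaged and the brightest probe stood for a gene. A probe entered a comparison if well above background on both arrays of at least 1 of its 2 tissues, and the difference between regions needed both regions. Accessions named 23374 of 41174 probes through RefSeq GRCm38.p6, giving 16534 features with a symbol. The members and lists were chosen with earlier results of these data known. Named were all members, and of each list the 3 brightest genes (markers: 2) and any called, except some genes that are not reported here. The size rule and limma were tested on simulated arrays with changes larger than those of any member. The rule that the mean exceed the SD was not tested there. Alternatives were processed signals, offset 10, no filter, mean over probes, median centring, spike-in scaling, quantile normalization, each array left out, and limma over arrays. Slide and scan were not tested as blocks.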

Additional observations from a re-analysis of the deposited data

Results flagged for a closer look

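Irf5 had a core minus penumbra difference of -0.14 in healthy tissue and 0.12 in ischemic tissue, with the same sign in both dyes of each. Irf8 had -0.11 and 0.08 in the same way, but -0.08 and 0.01 with the mean over its probes. With Agilent's processed signals the ischemic values were -0.04 and -0.03, so the signs were then not opposite. These opposite signs were not tested as such, and they are the core ratio minus penumbra ratio seen from its other side. That ratio difference was 0.26 for Irf5, which passed limma with a dye coefficient (adjusted p = 0.0353) and not limma without it (adjusted p = 1), while Irf8 passed neither (adjusted p = 0.0938 and 1). Socs3 had -0.20 in healthy and 0.15 in ischemic tissue, a pair that was not tested. Ifna13 had an ischemic over healthy ratio of 0.03 in the core and -0.09 in the penumbra, with the arrays of each region on 1 side of 0, which was not tested either.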

How the results depend on the processing

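Agilent's processed signals called more features: 244 in the core, 219 in the penumbra, 107 for their difference, 913 for healthy and 1061 for ischemic pieces. An offset of 10 called 115 features in the core, 32 for the difference, 424 for healthy and 507 for ischemic pieces. The cause was not tested. With spike-in scaling 6 members in the core and 6 in the penumbra were beyond their SD, all lower, which follows from the shift. This core count includes Irf4, which the member counts above leave out. Limma over arrays called 2 features for the difference in place of 15. With each array left out in turn, counts were 93 to 95 in the core, 78 to 86 in the penumbra, 23 to 33 for the difference (without any 1 of the 4), 378 to 461 for healthy and 413 to 543 for ischemic pieces (the higher count without core array 1 or penumbra array 3); a single array has no SD, so counts that need one could not be made. Of 325 values of a member in a comparison under an alternative, 42 moved by more than the SD and 26 changed sign, 11 of them under spike-in scaling and 7 under processed signals. Irf3 was at -0.05 in the penumbra without array 4, opposite in sign to the value without the other array. No paired analysis by replicate number was possible because the groups share none; ischemic and healthy RNA are paired on each array, and regions were matched by dye orientation. Signal over background limits Irf4 and the second probe of Irf9.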
